A study of Arabidopsis thaliana with 6 samples.

Results

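The genes described here are 10 Arabidopsis thaliana loci that regulate or carry out the response of the root to iron deficiency. They were taken by locus identifier from genes of known role, with no measured value in the rule: 7 regulators (FIT, BHLH38, BHLH39, BHLH100, BHLH101, PYE and BTS) and 3 genes of uptake and internal transport (IRT1, FRO2 and NAS4). The choice was still made with earlier results of these data known. The deposited table held all 10, as 17 of its 48359 transcripts and 10 of its 27655 loci. Isoforms were summed per locus. Values are TPM, transcript abundance per length scaled to a fixed total in each library, so levels can be compared between genes.

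RNA came from root tips of seedlings aged 6 days, in 3 libraries of wild type and 3 of the sos2-2 mutant. Both groups spent 12 hours in liquid half-strength MS with 100 mM NaCl. No group without salt was analysed here, so a difference present before salt cannot be told apart from one that arose on it. The kinase SOS2 acts in sodium export. The series' design names gl1 beside sos2-2, and the labels used here do not say whether the wild type carries gl1. The labels do not say whether the 3 libraries of a group came from separate cultures, so p-values measure the spread between these libraries, which may be technical.

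Plants such as Arabidopsis take up iron by acidifying the soil, reducing ferric iron at the root surface and importing the ferrous ion. FIT, a bHLH factor of the outer root layers, pairs with one of the subgroup Ib factors BHLH38, BHLH39, BHLH100 and BHLH101 to switch on the reductase FRO2 and the importer IRT1. PYE, a bHLH factor first described in the stele, represses genes of iron movement inside the plant, NAS4 among them, and BTS is a ubiquitin ligase that restrains the response. NAS4 makes nicotianamine, a metal chelator used in iron transport.

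Factors of the bHLH family bind the E-box, CANNTG, of which the G-box, CACGTG, is one form. The 250 bases before the annotated start of 6 members are shown, in lower case with each E-box in capitals. They cover the 3 genes that differed between genotypes (FIT, PYE and NAS4), the ligase gene BTS with its G-boxes, the subgroup Ib gene BHLH38 with its G-box, and IRT1, which was high in 1 library. In TAIR10.1 the windows lie at chr2:12004408-12004657, chr3:17566876-17567125, chr1:21136585-21136834, chr3:6273716-6273965 and chr4:10707094-10707343 on the plus strand, and at chr3:21085246-21085495 on the minus strand. None of these 6 windows overlaps another annotated gene. They are read 5′ to 3′ on the strand of the gene and were taken from the RefSeq genome.
FIT: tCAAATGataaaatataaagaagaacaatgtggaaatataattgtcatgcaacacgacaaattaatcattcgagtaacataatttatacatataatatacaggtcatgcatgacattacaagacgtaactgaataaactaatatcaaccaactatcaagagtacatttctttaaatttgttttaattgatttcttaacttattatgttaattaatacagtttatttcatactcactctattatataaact
PYE: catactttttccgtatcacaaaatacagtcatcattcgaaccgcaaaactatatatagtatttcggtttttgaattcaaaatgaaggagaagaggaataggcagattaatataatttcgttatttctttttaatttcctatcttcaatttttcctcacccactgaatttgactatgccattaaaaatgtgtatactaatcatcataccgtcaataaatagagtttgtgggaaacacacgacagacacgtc
NAS4: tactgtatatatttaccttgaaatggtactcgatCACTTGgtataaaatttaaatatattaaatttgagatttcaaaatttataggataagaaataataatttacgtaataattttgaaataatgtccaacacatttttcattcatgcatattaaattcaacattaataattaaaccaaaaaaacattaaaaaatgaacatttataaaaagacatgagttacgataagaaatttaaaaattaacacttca
BTS: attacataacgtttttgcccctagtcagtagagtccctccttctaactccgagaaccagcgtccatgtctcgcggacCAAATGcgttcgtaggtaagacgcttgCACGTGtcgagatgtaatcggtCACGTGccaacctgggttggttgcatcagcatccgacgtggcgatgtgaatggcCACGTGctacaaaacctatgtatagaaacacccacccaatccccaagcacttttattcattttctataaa
BHLH38: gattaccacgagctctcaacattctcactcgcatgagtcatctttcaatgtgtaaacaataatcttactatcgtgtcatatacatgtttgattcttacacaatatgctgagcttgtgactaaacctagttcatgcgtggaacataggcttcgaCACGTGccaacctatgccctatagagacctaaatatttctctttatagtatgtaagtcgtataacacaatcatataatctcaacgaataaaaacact
IRT1: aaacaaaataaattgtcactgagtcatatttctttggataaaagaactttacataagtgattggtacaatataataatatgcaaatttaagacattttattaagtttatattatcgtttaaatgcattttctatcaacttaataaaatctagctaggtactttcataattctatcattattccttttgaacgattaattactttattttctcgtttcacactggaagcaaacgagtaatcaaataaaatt

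The BTS window held 3 copies of CACGTG, starting 146, 124 and 70 bases before the gene start, and 1 further E-box. BHLH38 held 1 G-box, 97 bases before its start. FIT held CAAATG at 249 bases and NAS4 held CACTTG at 216 bases, each its 1 E-box, and PYE and IRT1 held neither motif. The PYE window ends at 17567125, but the main PYE transcript, AT3G47640.1, starts at 17567476. The bases just before that transcript were therefore not searched. Of the members not printed, BHLH39 held 1 E-box, BHLH100 held 1 G-box among 2 E-boxes, and BHLH101 and FRO2 held neither. The FRO2 window ends at 208994, while the only FRO2 transcript above 0 TPM, AT1G01580.1, starts at 209208. The bases between were not searched. Both motifs read the same on either strand, and every G-box is also counted as an E-box. Of 27443 windows before protein-coding genes, 6.49% held a G-box and 55.3% an E-box. These matches describe the letters in the windows and do not show binding.

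Between 18812 and 19141 genes reached 1 TPM in a library. Wild-type replicate 1 gave 5.55% of its TPM to 1 transcript (AT2G01021.1), against 1.79% and 1.44% in the other wild-type libraries. The same transcript took 3.66% of sos2-2 replicate 2. Its locus stood at 4386, 36625 and 1908 TPM across the mutant libraries. Wild-type replicate 1 also held 222 genes lying more than 1 log2 unit below both other wild-type libraries, and 46 that far above them. Replicate 1 of sos2-2 stood apart from its 2 mates by the same margin for 307 genes above and 311 below. TPM keeps no trace of depth, so the sequencing depth is unknown and no counting interval is given. SOS2 itself rose from 5.41 ± 0.42 TPM to 15.5 ± 6.0 TPM (SD, n = 3 each; limma adjusted p = 0.00289), and since no source used here gives the lesion of the allele, this level does not check the labels. Root tip markers were present in every library, including PLT1 and SMB. Of 3 leaf genes, LHCB1.1 stayed between 0.0861 and 0.322 TPM. The others were higher, with RBCS1A from 3.44 to 23.5 TPM and PSBO1 from 32.3 to 53.8 TPM across all libraries. The leaf genes summed to 55.6 to 77.3 TPM in wild type and 41.7 to 48.5 TPM in sos2-2, so these genes do not settle the purity of the tissue.

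Of the 10 members, 7 reached the filter of a mean of 1 TPM over the 6 libraries and were tested with limma on log2(TPM + 1). FIT and PYE were higher in sos2-2, NAS4 was lower, and 4 were not called at an adjusted p under 0.05. Across all 19527 tested genes the same rule called 65.4%, with 31.3% higher and 34.1% lower in sos2-2. The members' 3 of 7 stands below that background share, but 7 genes are too few to show a shortfall. Without sos2-2 replicate 1 the count was 4 of 6. Groups did not overlap for 3 of the 7, against 72.1% of all tested genes, 35.0% with sos2-2 higher and 37.1% with it lower. The median log2 fold change of the 7 was 0.22, beside -0.05 over all tested genes.

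**Figure D1:**
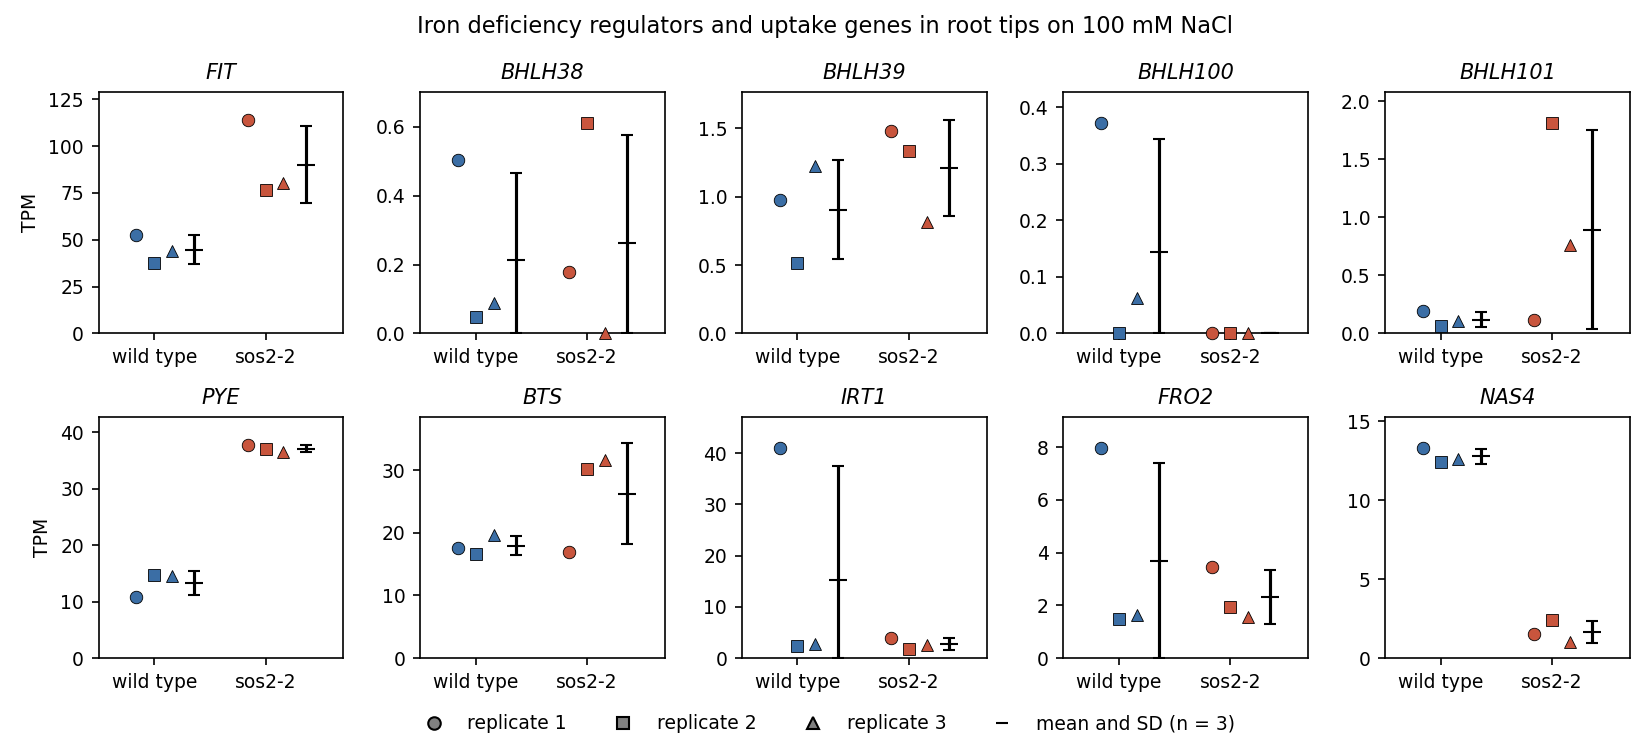
TPM of the 10 members in each library, isoforms summed, wild type in blue and sos2-2 in red, with marker shapes for replicate numbers and black bars for mean and SD (n = 3, lower end drawn no further than 0). FIT and PYE lie higher and NAS4 lower in all 3 sos2-2 libraries, while IRT1 and FRO2 are highest in wild-type replicate 1, at 40.9 and 7.96 TPM.

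FIT was the most abundant member in both genotypes. Its level was 52.7, 37.5 and 44.0 TPM across wild type and, in the mutant, 113.8, 76.4 and 80.1 TPM. All 3 mutant libraries exceeded all 3 wild-type libraries, with replicate 1 the highest in each genotype. The mean rose 2.01-fold, from 44.7 ± 7.6 to 90.1 ± 20.6 TPM (SD, n = 3 each; log2 fold change 0.98, SE 0.19, limma adjusted p = 0.00287). FIT lies on chromosome 2 from 12004658 to 12006276 in TAIR10.1.

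PYE, the repressor of internal iron movement, was also higher in the mutant. It stood at 10.9, 14.7 and 14.5 TPM in the wild-type libraries, against 37.7, 37.0 and 36.5 TPM in sos2-2. The mutant libraries lay close together and far above the wild-type range. The rise was 2.77-fold, with means of 13.4 ± 2.1 and 37.1 ± 0.6 TPM (log2 fold change 1.42, SE 0.14, adjusted p = 0.000106). PYE spans 17567126 to 17569394 on chromosome 3.

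NAS4, the nicotianamine synthase gene that PYE is known to repress, was lower in the mutant. Wild-type libraries held 13.3, 12.4 and 12.6 TPM, and sos2-2 libraries 1.56, 2.41 and 1.03 TPM. The groups were well apart, and the fall was 7.66-fold, with means of 12.8 ± 0.5 and 1.67 ± 0.70 TPM (log2 fold change -2.40, SE 0.20, adjusted p = 6.41e-05). NAS4 has 1 exon, from 21136835 to 21138277 on chromosome 1. Any link between the levels of PYE and NAS4 was not tested. Fewer cells of a type and less RNA per cell cannot be told apart in these bulk samples.

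BTS, the ubiquitin ligase gene, was not called. It stood at 17.5, 16.6 and 19.6 TPM across wild type and, in the mutant, 17.0, 30.1 and 31.6 TPM. Replicate 1 of the mutant lay inside the wild-type range and the other mutant libraries above it. The log2 fold change was 0.48 (95% interval -0.06 to 1.02, adjusted p = 0.101). Without sos2-2 replicate 1 it was 0.76 and BTS was called higher (adjusted p = 0.00119).

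The 4 subgroup Ib factors were near the lower end of what the table reports. BHLH39, on chromosome 3, stood at 0.974, 0.513 and 1.23 TPM in the wild-type libraries, against 1.48, 1.33 and 0.816 TPM in sos2-2, with groups that overlapped (log2 fold change 0.22, 95% interval -0.29 to 0.73, adjusted p = 0.404). Its neighbour BHLH38, 1144 bases away, was listed at 0.504, 0.0469 and 0.0873 TPM across wild type and, in the mutant, 0.178, 0.610 and 0 TPM. BHLH100 was listed at 0.371, 0 and 0.0624 TPM across wild type and, in the mutant, at 0 in all 3 libraries. BHLH101 was listed at 0.189, 0.0599 and 0.109 TPM in the wild-type libraries, against 0.113, 1.81 and 0.762 TPM in sos2-2. The last 3 genes fell below the filter and were not tested, and an exact 0 can be a failed estimate.

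These partners of FIT were thus listed at most at 1.81 TPM in any library, where FIT itself ranged from 37.5 to 113.8 TPM. In TAIR10.1, 34.6% of the 31-base words of BHLH38 transcripts also occur in transcripts of another locus, 33.8% in the adjacent AT3G56960, so its value is uncertain. The share was 4.65% for BHLH101 and under 1% for each of the other 8 members.

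IRT1, the main ferrous iron importer of the root, was high in 1 library. It stood at 40.9, 2.39 and 2.68 TPM across wild type and, in the mutant, 3.94, 1.81 and 2.56 TPM. Wild-type replicate 1 exceeded every other library, and the remaining 5 overlapped. The log2 fold change was -1.14 with a 95% interval from -3.27 to 1.00 (adjusted p = 0.301). Without that library it was 0.05 (adjusted p = 0.875), with means of 2.54 TPM in wild type and 2.77 TPM in sos2-2.

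FRO2, the ferric chelate reductase, had the same library on top. Its levels were 7.96, 1.47 and 1.65 TPM in the wild-type libraries, against 3.47, 1.93 and 1.55 TPM in sos2-2, so the groups overlapped. Its log2 fold change was -0.27 (95% interval -1.45 to 0.90, adjusted p = 0.653), and 0.33 without wild-type replicate 1 (adjusted p = 0.337).

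The excess of wild-type replicate 1 was measured for every tested gene as its log2(TPM + 1) minus that of the higher of the other wild-type libraries. IRT1 had the largest excess of all 19527 genes, 3.51, and FRO2 the fourth largest, 1.76. The genes ranked between them were the chloroplast-encoded loci ATCG00065 and ATCG00510. The excess was 0.25 for FIT, at rank 942. Replicate 1 was the highest wild-type library for 7 of the 10 members, and for 4 of the 7 tested, against 33.2% of all tested genes. Among 45 other tested iron genes it was highest for 14, and none exceeded the others by more than 1 log2 unit.

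**Figure D2:**
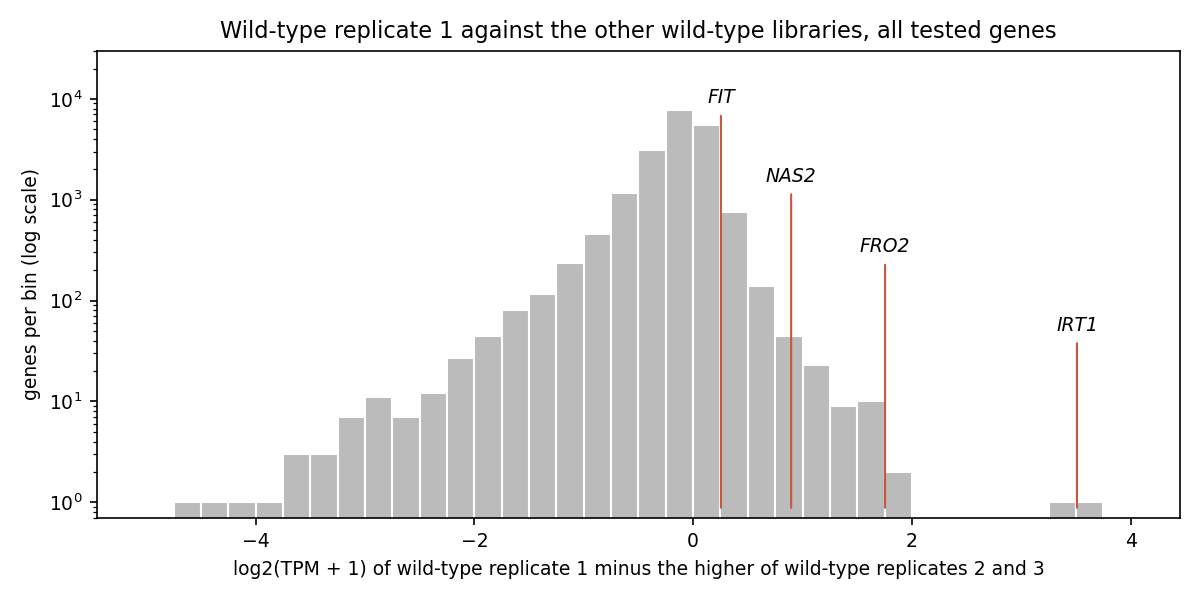
Histogram of 19527 tested genes by the excess of wild-type replicate 1, log2(TPM + 1) minus that of the higher of wild-type replicates 2 and 3, with genes per bin on a log axis. Vertical lines mark IRT1 at 3.51, FRO2 at 1.76, NAS2 at 0.90 and FIT at 0.25; IRT1 lies at the right end.

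Other genes known to follow FIT in iron-deficient roots were not all high in that library. CYP82C4, a cytochrome P450 that modifies coumarins, was listed at 2.19, 0 and 0.176 TPM across wild type and, in the mutant, at no more than 0.142 TPM, below the filter. NAS2 stood at 16.7 TPM in replicate 1 and 4.74 and 8.51 TPM in the other wild-type libraries. IRT2, which lies 2505 bases from IRT1 and encodes a related importer, was at 54.6, 63.3 and 47.2 TPM, with replicate 1 in the middle. None of the 31-base words of IRT2 transcripts occurs in another locus.

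In order of level, wild type ran FIT, BTS, IRT1, PYE, NAS4, FRO2, BHLH39, BHLH38, BHLH100 and BHLH101. The place of IRT1 rests on wild-type replicate 1, without which its mean of 2.54 TPM lies below those of PYE and NAS4. The ranges of BTS, IRT1, PYE and NAS4 overlapped from each to the next, and so did those of BHLH38, BHLH100 and BHLH101. The IRT1 range, 2.39 to 40.9 TPM, was widened by wild-type replicate 1. BTS itself, at 16.6 to 19.6 TPM, lay above the ranges of PYE and NAS4. In sos2-2 the order was FIT, PYE, BTS, IRT1, FRO2, NAS4, BHLH39, BHLH101, BHLH38 and BHLH100. There the leading 3 were apart from each other and from IRT1, and from IRT1 down each range overlapped the next. The range of NAS4 thus lay inside that of PYE in wild type, and overlapped that of FRO2 in the mutant.

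Isoforms showed which transcripts carried these levels. The main FIT transcript, AT2G28160.1, with 4 exons and a coding length of 957 bases, stood at 45.4, 24.4 and 33.1 TPM across wild type and, in the mutant, 97.3, 73.3 and 63.1 TPM. It was called higher (log2 fold change 1.18, SE 0.25, adjusted p = 0.00674) in a fit of 27461 transcripts of which 50.8% were called, 25.1% higher and 25.7% lower. The second, AT2G28160.2, with 5 exons and 936 coding bases, stood at 7.25, 13.1 and 10.9 TPM and then at 16.5, 3.11 and 17.0 TPM. It was not called (log2 fold change -0.03, adjusted p = 0.968).

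The second transcript made up 24.5 ± 10.6% of FIT in wild type and 13.3 ± 8.7% in sos2-2. Its share was 13.8%, 35.0% and 24.7% in the wild-type libraries and 14.5%, 4.07% and 21.2% in the mutant ones, and the groups overlapped. The two-sided exact permutation p was 0.3, but with n = 3 each this test cannot go below 0.1, so it does not show whether isoform use changed.

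For PYE, AT3G47640.1 carried 76.4% to 100% of the level and was called higher (log2 fold change 1.295, SE 0.16, adjusted p = 0.000522). AT3G47640.3 was at 0, 7.98 and 2.59 TPM in sos2-2 and was not called (adjusted p = 0.254). All 3 PYE transcripts have the same coding length, 723 bases. The high IRT1 value came wholly from the 3-exon transcript AT4G19690.2. The short AT4G19690.1, with 1 exon, was listed at 0 in wild type and at 0.515, 0.202 and 1.42 TPM in sos2-2, below the filter.

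**Figure D3:**
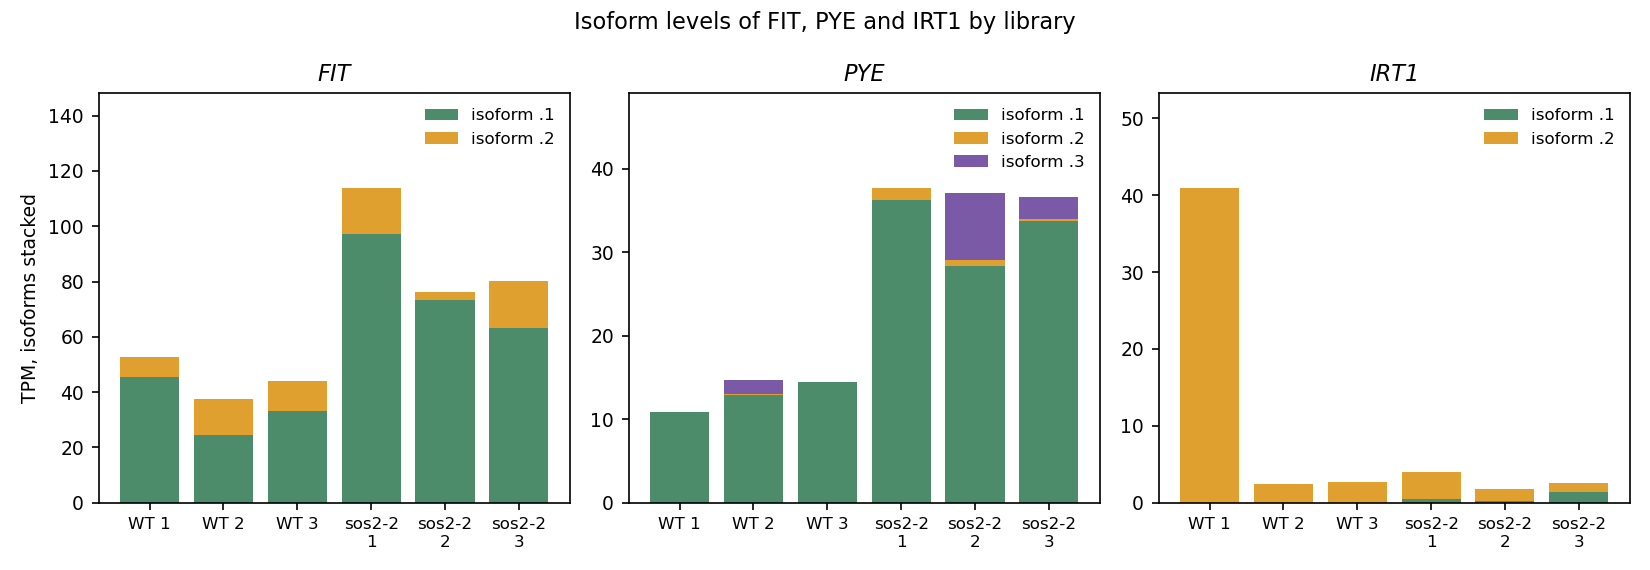
TPM of the annotated isoforms of FIT, PYE and IRT1, stacked in each of the 6 libraries. The first FIT and PYE isoforms account for most of the rise in sos2-2, and the 40.9 TPM of IRT1 in wild-type replicate 1 is all the second isoform.

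The rest of the pathway was followed in 62 further iron genes, of which 45 passed the filter. Of these, 11 were higher in sos2-2, 15 were lower and 19 were not called, or 57.8% called beside 65.4% of all tested genes. Their median log2 fold change was -0.16, against -0.05 over all tested genes. The lists were chosen with earlier results of these data known.

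**Figure D4:**
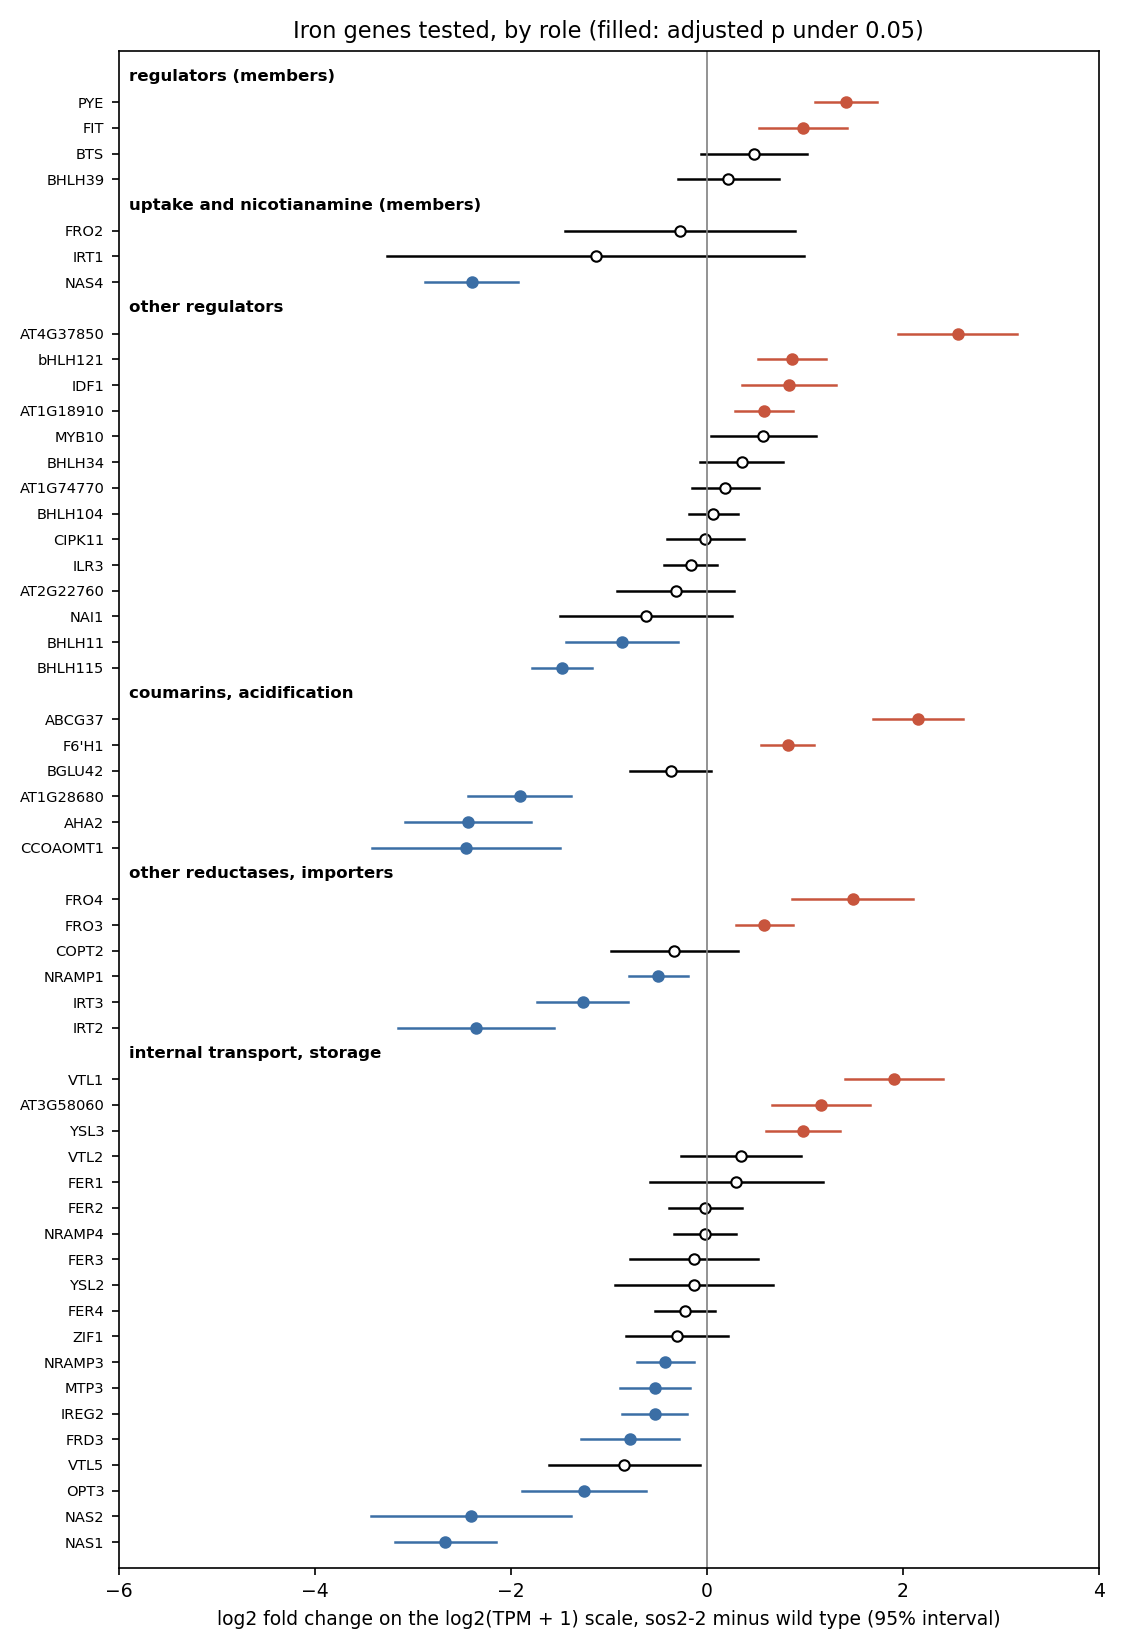
Difference between sos2-2 and wild type in mean log2(TPM + 1), positive where the mutant was higher, with 95% intervals from limma, for the 7 tested members and 45 other tested iron genes grouped by role. Filled red points were called higher and filled blue points lower, and open points were not called; IRT1 has the widest interval among the members, -3.27 to 1.00.

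Regulators other than the members had 4 higher, 2 lower and 8 not called of 14 tested, or 42.9% called. Over all tested genes 65.4% were called, 31.3% higher and 34.1% lower. BHLH115, a subgroup IVc factor known to activate the subgroup Ib genes, fell 2.81-fold, from 97.3 ± 2.9 to 34.6 ± 5.3 TPM, with groups far apart (log2 fold change -1.48, adjusted p = 7.67e-05). Its relatives ILR3, BHLH104 and BHLH34 were not called, with log2 fold changes of -0.16, 0.06 and 0.35. The gene bHLH121, whose product partners with subgroup IVc factors, rose from 23.8 ± 3.9 to 44.2 ± 5.1 TPM (adjusted p = 0.00155). AT4G37850, annotated only as a bHLH protein, rose 6.32-fold, from 12.8 ± 3.5 to 81.1 ± 21.8 TPM (adjusted p = 0.000146). IDF1, a ubiquitin ligase known for degrading the IRT1 protein, rose 1.88-fold (adjusted p = 0.0086), and it was named after its values were seen.

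Genes of acidification and coumarin secretion had 2 higher and 3 lower of 6 tested, or 83.3% called. Over all tested genes 31.3% were higher and 34.1% lower, 65.4% called. AHA2, the proton pump that acidifies the root surface, stood at 603, 491 and 566 TPM in the wild-type libraries, against 67.2, 151.3 and 100.7 TPM in sos2-2. This was a 5.20-fold fall (log2 fold change -2.44, adjusted p = 0.000231). ABCG37, also known as PDR9, an exporter of phenolic compounds, rose 4.57-fold, from 101.8 to 465 TPM (adjusted p = 8.39e-05). F6'H1, which makes the precursor of the coumarin scopoletin, rose 1.77-fold (adjusted p = 0.000604). AT1G28680, annotated as an HXXXD-type acyltransferase, fell 3.72-fold (adjusted p = 0.00026).

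Other reductases and importers had 2 higher and 3 lower of 6 tested, or 83.3% called beside 65.4% of all tested genes. IRT2 fell from 54.6, 63.3 and 47.2 TPM to 5.33, 16.3 and 10.8 TPM, or 5.10-fold (log2 fold change -2.35, adjusted p = 0.000732). IRT3, a zinc and iron importer, fell 2.44-fold, from 54.8 ± 8.7 to 22.5 ± 5.5 TPM (adjusted p = 0.00102). FRO4, a reductase gene known for copper, rose from 0.132, 0.323 and 0.435 TPM to 4.06, 1.61 and 2.58 TPM (adjusted p = 0.0018). It passed the filter through its level in the mutant. FRO3, the other reductase gene called higher, rose from 30.3 ± 3.7 to 45.8 ± 2.7 TPM (limma adjusted p = 0.00441). FRO1, 1067 bases from FRO2, was listed at 0 in 5 libraries and at 0.0461 TPM in wild-type replicate 3.

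Among 19 tested genes of internal transport and storage 52.6% were called, beside 65.4% of all tested genes. In this list 3 were higher, 7 lower and 9 not called. Of those called, NAS2 passed the filter only through wild type, and AT3G58060, at a mean of 0.494 TPM in wild type and 2.42 TPM in sos2-2, only through the mutant. NAS1 fell like NAS4, from 43.9, 26.6 and 34.2 TPM to 4.06, 6.01 and 3.79 TPM (7.55-fold, log2 fold change -2.67, adjusted p = 5.97e-05). NAS2 fell from a mean of 9.98 to 0.947 TPM (log2 fold change -2.41, adjusted p = 0.00218). Without wild-type replicate 1 its wild-type mean was 6.62 TPM, which moved the ratio of means 1.51 times. NAS3 was listed at 0 in all 6 libraries. NAS1, NAS2 and NAS4 were thus lower, as were 34.1% of all tested genes. Of the 31-base words, 1.39% of those of NAS1 and 0.142% of those of NAS4 occur in another locus. VTL1, a vacuolar iron transporter-like gene, rose 4.03-fold, from 14.5 ± 2.2 to 58.5 ± 15.1 TPM (adjusted p = 0.000217). YSL3, a transporter of metal-nicotianamine complexes, rose 2.03-fold (adjusted p = 0.00125).

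**Figure D5:**
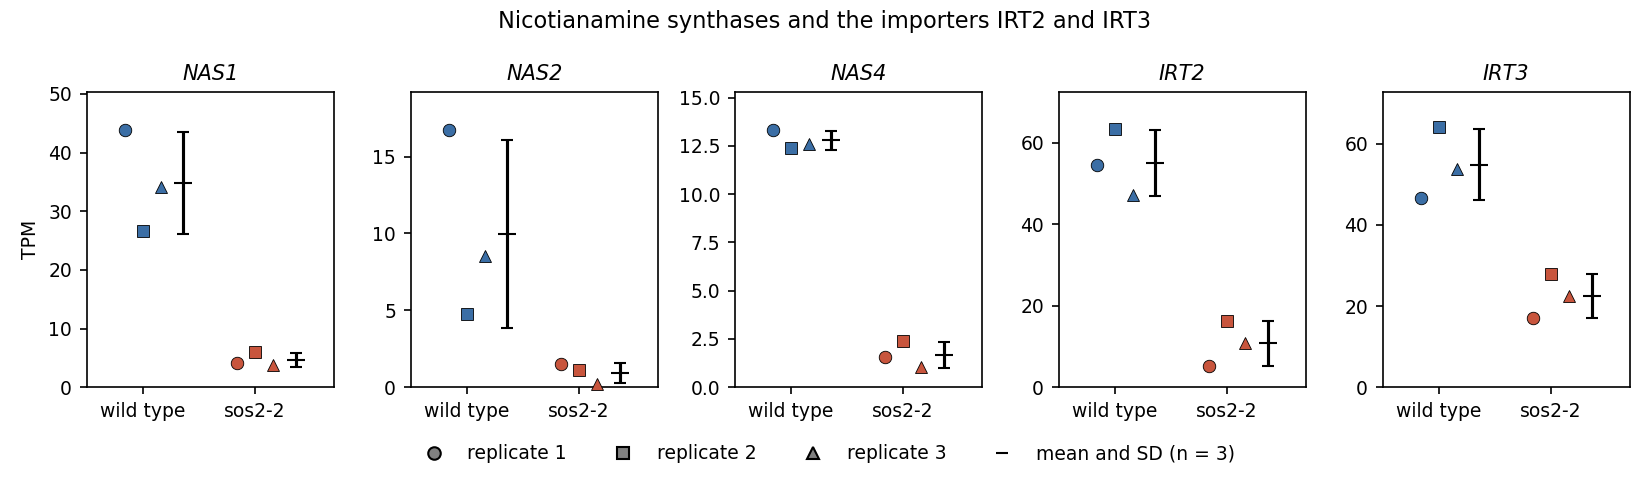
TPM of NAS1, NAS2, NAS4, IRT2 and IRT3 in each library, wild type in blue and sos2-2 in red, with marker shapes for replicate numbers and black bars for mean and SD (n = 3). In all 5 panels the sos2-2 libraries lie below every wild-type library, as for NAS4 at 1.03 to 2.41 TPM against 12.4 to 13.3 TPM.

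Likeness over the 6 libraries was measured as the root mean square difference of log2(TPM + 1) centred per gene, among 51 other tested iron genes. The nearest gene to NAS4 was NAS1 (0.233), to FIT it was F6'H1 (0.22), and to PYE it was AT3G58060 (0.257). BTS was nearest to BHLH34 (0.174), IRT1 to FRO2 (0.746), and both FRO2 (0.556) and BHLH39 (0.195) to the ferritin gene FER2. This scale understates changes of low genes such as AT3G58060 and BHLH39, which limits their pairings. IRT1 and FRO2 were both highest in wild-type replicate 1, at 40.9 and 7.96 TPM.

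Levels of root cell layer markers are given beside these results, with 65.4% of all tested genes called, 31.3% higher and 34.1% lower. Of 9 epidermis and root hair markers 3 were higher, 4 lower and 2 not called in sos2-2. Their summed level ran from 1562 to 1980 TPM in wild type and from 534 to 631 TPM in sos2-2. PRP3 was the largest part of the wild-type sum, with means of 1157 TPM there and 137 TPM in sos2-2. The epidermal fate genes WER and GL2 were among those higher, at 34.3 and 9.22 TPM in wild type and 114.2 and 22.5 TPM in sos2-2, and PRP3 of growing hairs was among those lower. Endodermis markers summed to 584 to 721 TPM in wild type and 154 to 326 TPM in sos2-2, with 1 of 5 higher and 3 lower. CASP1 was the largest part of the wild-type sum, with means of 408 TPM there and 53.1 TPM in sos2-2. MYB36, the 1 called higher, had means of 56.0 and 128 TPM. The sums thus follow abundant genes more than the other markers. Root cap markers summed to 29.2 to 33.1 and 42.0 to 43.9 TPM, and markers of meristem and division to 56.3 to 83.9 and 20.0 to 30.4 TPM. Of the last 5 genes, KN and CYCB1;1, both known from dividing cells, were lower, with means of 40.8 and 13.7 TPM in wild type and 3.60 and 4.05 TPM in sos2-2. The meristem genes PLT1, PLT2 and WOX5 were not called, at 6.05, 6.20 and 4.30 TPM in wild type and 5.95, 7.76 and 2.93 TPM in sos2-2. No marker was listed at 0 in any library. The part of these layers in the changes of FIT, PYE and NAS4 was not tested.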

How the data were processed

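The members and gene lists were chosen with earlier results of these data known. The authors deposited TPM for 48359 transcripts in 6 libraries, read as TPM because each column sums to 1000000. Listed in the submitters' processing notes, without roles, are TAIR10, sleuth 0.30.0 and kallisto 0.46.2. No source used here gives the annotation release, filters or strand setting. Columns of other samples numbered 0.

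Transcripts were summed to 27655 loci. Loci averaging 1 TPM or more entered a test on log2(TPM + 1) in limma 3.58.1 (R 4.3.3), genotype only, with trend and robust moderation. Benjamini-Hochberg adjustment covered all tested genes, with calls at an adjusted p under 0.05. Fold changes on this scale understate changes of low genes. Values written N-fold compare mean TPM. The fit was tested on simulated data with independent normal noise and few changed genes. That setting is unlike these data, so it does not vouch for the calls given here. Names, positions and windows came from the RefSeq TAIR10.1 annotation and genome, which had an entry for 99.2% of loci. Of 97 list entries, 13 carry a name that the reference does not give in that form; they are printed under the reference name or locus, except FIT. Genes named were the 10 members, SOS2 and the 3 called genes of smallest p in each list, and the nearest gene to each tested member. Any other gene was named after its values were seen.

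Alternatives left out each library, changed the pseudocount, filter, scaling or moderation, took the highest transcript per locus, or fitted the replicate number as a block. Figures used Python 3.11.15.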

Additional observations from a re-analysis of the deposited data

How the results depend on the processing

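FIT, PYE and NAS4 kept their direction and call in all 15 alternatives, with adjusted p from 0.000964 to 0.0138 for FIT, 9.3e-05 to 0.00115 for PYE and 3.52e-05 to 0.000785 for NAS4. The count of members called was 3 in each, except 4 without sos2-2 replicate 1, where BTS was added. BTS was called in 1 of 15. IRT1 and FRO2 were called in none, with adjusted p from 0.128 to 0.875 and 0.337 to 0.893, and both changed sign without wild-type replicate 1, to log2 fold changes of 0.054 and 0.33. Leaving out 1 library at a time gave -1.76 to 0.054 for IRT1 and -0.60 to 0.33 for FRO2. Wild-type replicate 1 held the highest value of both, and the cause was not tested. Among the mutant libraries replicate 1 was also highest for both, at 3.94 TPM for IRT1 and 3.47 TPM for FRO2. Called member isoforms numbered 3, and from 3 to 5 when 1 library was left out, the 5 without sos2-2 replicate 1, where BTS and the PYE transcript AT3G47640.3 were added. Across alternatives the calls in the wider iron list ran from 20 of 35 tested, with the filter at 5 TPM, to 31 of 61 with no filter. Over all genes they ran from 10658 of 19472 tested, without wild-type replicate 3, to 13264 of 25042 with no filter.

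Deviations of same-numbered libraries correlated at 0.177, 0.0505 and 0.0576, and those of differently numbered libraries at -0.197 to 0.182. These ranges overlap and do not settle whether equal replicate numbers mark paired libraries. With the replicate block 3 members, 29 wider iron genes and 12547 genes in all were called. Rescaling moved the median log2 fold change of all genes from -0.05 to -0.02 or -0.08. Depth is unknown, which limits what can be said of the subgroup Ib genes near 0 TPM.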

Other observations

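The ferritin genes FER1 and FER3, which encode iron storage proteins, were not called. FER1 stood at 118, 115 and 118 TPM across wild type and, in the mutant, 282, 90.7 and 118 TPM, and FER3 at 83.0, 75.6 and 85.5 TPM and then 120.7, 56.4 and 59.97 TPM. Replicate 1 of sos2-2 was the highest of all 6 libraries for both. In the same library FIT was highest of all 6, at 113.8 TPM, and BTS was the lowest of the mutant libraries, at 17.0 TPM. These genes were picked after their values were seen.

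Of the 62 wider iron genes 45 passed the filter, and 5 of the rest had groups that did not overlap. AT1G47400 and AT1G47395, which the reference annotates as uncharacterized proteins, and VIT1 were lower in sos2-2, and MYB72 and YSL1 were higher. AT1G47395 was listed at 1.65, 0.374 and 1.88 TPM in the wild-type libraries, against 0.0728, 0.209 and 0.0984 TPM in sos2-2. VIT1, a vacuolar iron transporter, was listed at 0.666, 1.52 and 1.39 TPM across wild type and, in the mutant, 0.132, 0 and 0.178 TPM. MYB72, a transcription factor, was listed at 0.188, 0.0956 and 0.175 TPM in wild type against 0.504, 0.322 and 0.606 TPM. YSL1, a relative of YSL3, was listed at 0.127, 0.0639 and 0.191 TPM in wild type against 0.832, 0.272 and 0.513 TPM. AT1G47400 was listed at 0.867, 1.09 and 0.682 TPM in wild type against 0, 0.455 and 0.214 TPM. None of the 5 was tested. Groups also did not overlap for 72.1% of tested genes, but that share covers only genes that passed the filter. No such share was computed for genes below it.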
